A study of Mus musculus with 12 samples.

Results

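The Cd209 family is a set of 7 mouse genes, Cd209a to Cd209g, taken from a table of 55401 gene identifiers by gene symbol. The family was selected on these data, because Cd209a and Cd209d had been seen to be lower with the fusion protein alone than in untreated tumours. For that comparison the family's values are therefore given as a description, with no test. Of the 7 genes, 5 (Cd209a, Cd209b, Cd209c, Cd209d and Cd209e) reached a normalized count of 10 in at least 3 of the 12 libraries and could be tested among 18274 genes. Cd209c and Cd209e reached that level only in untreated and 20 Gy libraries, and Cd209d there and in 2 others.

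The cells came from B16-OVA tumours, a mouse melanoma line that carries ovalbumin, grown for 10 days before the first treatment in mice whose genotype is given as WT. The mice's strain, age and sex are not stated in those labels. Live cells bearing CD45, carried by all leukocytes, and CD11c, an integrin of dendritic cells and other myeloid cells, were sorted at day 17 from 4 groups of 3 samples. The groups were untreated, fusion protein alone (20 mcg at day 10 and 10 mcg at day 14), 20 Gy of radiation alone at day 10, and both, called combined here. The sources used here do not say what the fusion protein is made of. Nor do they say whether each sample is a mouse of its own, so the p-values reflect only how these samples vary, which could be technical. Both sort markers were read in every group: the CD11c gene Itgax had mean normalized counts of 6370, 4582, 6414 and 5013, and the CD45 gene Ptprc 40220, 42485, 38587 and 42806, in the order untreated, fusion protein, 20 Gy and combined.

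CD209 proteins are membrane lectins that bind mannose- and fucose-bearing sugars on microbes and on host glycoproteins. The human member, DC-SIGN, sits on dendritic cells, binds ICAM adhesion molecules and is induced when monocytes are cultured with GM-CSF and IL-4. Mice carry several copies: Cd209a is a marker of monocyte-derived dendritic cells and of a share of conventional type 2 dendritic cells, Cd209b encodes SIGNR1 of marginal zone and lymph node macrophages, and Cd209d encodes SIGNR3, whose sugar binding is close to that of DC-SIGN.

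All 7 genes lie on chromosome 8 of GRCm38 within 394311 bases, from 3743397 to 4137707. Cd209a spans 3743397 to 3748984, Cd209e 3847965 to 3854309, Cd209d 3871824 to 3878555, Cd209b 3917655 to 3926844, Cd209c 3940222 to 3954746 and Cd209f 4102787 to 4105835, all on the minus strand, and Cd209g spans 4134098 to 4137707 on the plus strand. Promoter sequences from RefSeq (GRCm38.p6) matched 7 of 7 genes. The promoters of Cd209a, Cd209d and Cd209e are shown because all their values with the fusion protein lay below all those without it. That of Cd209b is shown because its values did not follow them. The RefSeq windows begin 250 bases before a RefSeq start, which differs by gene from the GENCODE start given above. Each run is printed up to 30 bases from the GENCODE start, with 250 bases before it for Cd209a, 194 for Cd209d, 227 for Cd209e and 247 for Cd209b. The capitals mark the longest run of letters, 12 bases, that Cd209a, Cd209d and Cd209e have in common.
Cd209a, chr8:3748955-3749234, minus strand: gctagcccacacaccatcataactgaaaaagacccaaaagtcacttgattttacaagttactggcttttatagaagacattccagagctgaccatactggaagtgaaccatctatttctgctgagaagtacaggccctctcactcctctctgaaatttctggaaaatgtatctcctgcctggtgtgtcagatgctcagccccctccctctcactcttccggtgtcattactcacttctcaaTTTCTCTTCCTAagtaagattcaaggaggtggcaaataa
Cd209d, chr8:3878526-3878749, minus strand: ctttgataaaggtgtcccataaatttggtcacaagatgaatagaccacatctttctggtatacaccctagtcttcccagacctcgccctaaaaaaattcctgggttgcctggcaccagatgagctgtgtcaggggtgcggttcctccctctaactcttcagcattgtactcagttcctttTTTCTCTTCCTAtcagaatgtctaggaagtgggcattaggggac
Cd209e, chr8:3854280-3854536, minus strand: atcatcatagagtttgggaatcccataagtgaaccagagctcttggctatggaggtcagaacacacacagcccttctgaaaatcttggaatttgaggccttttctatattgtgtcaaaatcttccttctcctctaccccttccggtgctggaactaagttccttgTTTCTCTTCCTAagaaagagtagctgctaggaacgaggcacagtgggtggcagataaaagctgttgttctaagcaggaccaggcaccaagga
Cd209b, chr8:3926815-3927091, minus strand: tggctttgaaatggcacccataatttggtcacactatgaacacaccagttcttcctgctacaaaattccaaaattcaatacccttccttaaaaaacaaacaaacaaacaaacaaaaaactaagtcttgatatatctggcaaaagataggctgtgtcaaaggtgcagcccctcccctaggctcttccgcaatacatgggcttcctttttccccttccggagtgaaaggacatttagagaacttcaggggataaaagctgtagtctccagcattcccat

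The shared run, TTTCTCTTCCTA, starts 9 bases before the GENCODE start of Cd209a, 14 before that of Cd209d and 62 before that of Cd209e. It was not found in the windows of the other 4 members. Among these is Cd209c, whose means were also lower with the fusion protein: 3.47 against 39.5 in untreated, and 3.30 with both treatments against 82.8 after 20 Gy. All searches covered the whole RefSeq windows, with 250 bases before and 50 from the RefSeq start, which reach beyond the printed runs. On either strand TTTCTCTTCCTA occurs in 9 of 32851 RefSeq promoter windows of that length (0.0274%), those of Cd209a, Cd209d and Cd209e among them. It contains CTTCCT, the reverse complement of the ETS core AGGAAG, and that core, searched on both strands, was found in Cd209a, Cd209b, Cd209d and Cd209e and in 35.4% of all promoters. A second run of 11 bases, ATAAAAGCTGT, is common to the windows of Cd209a, where it lies partly beyond the printed bases, Cd209b and Cd209e, and occurs in 9 promoters as well. Between Cd209a and Cd209b this run extends to 17 bases. The longest run of Cd209a in common with Cd209e is 14 bases and with Cd209d 12 bases. Cd209b also has runs of 12 bases in common with Cd209d and with Cd209e, so shared letters were not limited to the genes with lower values. The interferon-stimulated response element, written as GAAA, 2 free bases and GAAA and searched on both strands, was found in 0 of the 7 family promoters and in 3.44% of all promoters. TTC and GAA with 4 free bases between them, a form that STAT6 can bind, was found in Cd209e alone of the family, overlapping the shared run, and in 6.95% of all promoters. With 3 free bases the same pair was found in 0 of the 7 and in 8.3%. Cd209f and Cd209g share a run of 180 bases in these windows, found in 2 promoters of the table. These matches describe letters and not binding sites.

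Reads of near-identical genes can be split or lost in counting, so the transcripts were compared in windows of 100 bases, the read length. For Cd209a, Cd209b, Cd209d and Cd209e, 0 windows were shared with a transcript of any other gene in GENCODE vM21. Cd209c shared 0 windows with the family but 98 of 2245 (4.37%) with other genes, mainly Gm42546 and the olfactory receptor pseudogene Olfr1372-ps1. Cd209f and Cd209g shared 467 windows with each other, 19.9% of those of Cd209f and 11.3% of those of Cd209g, so their counts are uncertain with respect to each other.

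The depth was 14462032 to 23985496 reads in genes per library. Libraries numbered 3 stood apart in melanoma transcripts, with normalized counts of the pigment gene Tyrp1 of 464.5, 1147.0, 4718.1 and 202.8 (untreated, fusion protein, 20 Gy, combined) against 1.2 to 38.5 in the other 8. Reads were also spread unevenly over genes known mainly from sensory tissue: of 1754 receptor genes for odours, pheromones and trace amines, between 4.79% and 78.96% had a read in a library, with the 2 highest shares in 20 Gy libraries. The called results are therefore also given without the libraries numbered 3 and with the receptor gene level in the fit.

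Cd209a was the most abundant member of the family in untreated and irradiated tumours and was far lower in both groups that received the fusion protein, at 4.57% of the untreated mean with the fusion protein alone and 3.16% of the 20 Gy mean with both. Its normalized counts were 1034.9, 711.4 and 861.7 in untreated and 1202.9, 1099.3 and 1040.5 in 20 Gy libraries. They were 58.2, 44.6 and 16.5 with the fusion protein alone and 44.9, 23.6 and 37.1 with the combined treatment. The 6 libraries without the fusion protein all lay above the 6 with it, and the gap was wide: the lowest 20 Gy library was 23.2 times the highest combined library.

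When the fusion protein was added to radiation, none of the 6 libraries compared had entered the comparison that the family was chosen by. The test was still not wholly free of the choice. The family was chosen with earlier results of these data known, and the fit took its spread from all 12 libraries. With only these 2 groups in the fit, Cd209a had an adjusted p of 0.00146 (limma). Cd209a fell by 4.99 ± 0.41 (SE) on the log2 scale of normalized count plus 1, from a mean of 1114 ± 82.3 (SD, n = 3) to 35.2 ± 10.8 (SD, n = 3), with an adjusted p of 0.000355 (limma, Benjamini-Hochberg over all genes). By this difference it ranked 3 from the lowest of 18274 genes. edgeR's quasi-likelihood test on the whole reads gave the same size of change and an adjusted p of 0.00125. Without the libraries numbered 3 the difference was −5.10 (limma, adjusted p = 0.00207), and with the receptor gene level in the fit −4.88 (adjusted p = 0.00221). Of the 5 tested members 1 fell, Cd209a, where 0.186% of all tested genes fell.

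Against untreated tumours, the fusion protein alone left Cd209a at 39.7 ± 21.3 (SD, n = 3) from 869 ± 162 (SD, n = 3), a difference of −4.57 (95% interval −5.47 to −3.68), the lowest of the tested genes. This is the comparison that the family was picked from, and the ranks of Cd209a and Cd209d in it, 1 and 2, restate the choice. The other 3 tested members ranked 5 (Cd209e), 47 (Cd209c) and 13037 (Cd209b). Over all tested genes, 0.159% fell in this comparison, 29 genes, against 186 with the replicate number as a block in the fit.

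Cd209d, the gene of SIGNR3, followed with a wider spread. Its normalized counts were 110.1, 334.5 and 101.4 in untreated tumours, 5.3, 17.2 and 2.2 with the fusion protein, 92.4, 117.9 and 89.0 after 20 Gy and 6.3, 29.9 and 4.3 with both. Library 2 was the highest of its group in all 4 groups, and the groups with and without the fusion protein did not overlap. The difference for combined against 20 Gy was −3.23 ± 0.78 (SE) and did not pass the threshold (limma, adjusted p = 0.0941). It passed with DESeq2 (adjusted p = 0.0129) and without combined library 2 (limma, adjusted p = 0.0433). With the replicate number as a block it passed too (limma, adjusted p = 0.00161). The numbers were not taken as pairs here, since same-numbered samples of these 2 groups correlated at 0.505, 0.01 and 0.382.

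Cd209e, which encodes SIGNR4, was sparser. It had normalized counts of 24.7, 66.2 and 48.6 in untreated and 29.9, 41.8 and 28.8 in 20 Gy libraries. With the fusion protein it was at 0, 9.1 and 0, and with both treatments at 2.7, 0 and 2.6. All libraries with the fusion protein lay below all those without it, but the counts there were few, 9 reads in 3 libraries (95% Poisson interval 4.12 to 17.1, counting error only) and 6 reads in the other 3 (2.20 to 13.1). The difference for combined against 20 Gy was −3.85 ± 0.92 (SE), which missed the threshold (limma, adjusted p = 0.0919). It passed with DESeq2 (adjusted p = 0.00586), with a pseudocount of 5 (limma, adjusted p = 0.0336) and with the replicate block (limma, adjusted p = 0.0354). Cd209e reached the filter only through libraries without the fusion protein. Its p-values for groups with the fusion protein against groups without it are therefore a description.

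Cd209c, the gene of SIGNR2, was high in some libraries and close to absent in others of the same group. Its normalized counts were 67.4, 49.9 and 1.0 in untreated and 104.7, 101.8 and 41.9 in 20 Gy libraries, against 6.3, 4.1 and 0 with the fusion protein and 9.9, 0 and 0 with both. Groups with and without the fusion protein overlapped in the untreated comparison, through untreated library 3, and did not overlap after radiation. The difference for combined against 20 Gy, −5.13 ± 1.39 (SE), was larger than that of Cd209a but had a wider error. Its adjusted p was 0.152 (limma), 0.0488 with DESeq2 and 0.00604 with the replicate block (limma). As with Cd209e, these p-values are a description, since Cd209c reached the filter only through untreated and 20 Gy libraries.

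Cd209b, the gene of SIGNR1, did not share this pattern. Its normalized counts were 25.5, 16.2 and 7.2 in untreated, 16.7, 13.9 and 0 in 20 Gy, 2.1, 139.8 and 13.2 in fusion protein and 11.7, 103.0 and 3.5 in combined libraries. The 2 values above 100 came from library 2 of the fusion protein group and library 2 of the combined group, and the other 4 libraries with the fusion protein lay within the range of those without it. Combined against 20 Gy, the difference was 1.49 with a 95% interval from −1.92 to 4.91 (limma, adjusted p = 0.913). The marker list of marginal zone and tissue-resident macrophages, the cells SIGNR1 is known from, summed to 1925 and 2562 in those 2 libraries, within the range of 321.7 to 5340 over all 12. This sum includes Siglec1, which interferon induces. Siglec1 had means of 77.1 in untreated, 1508.6 in fusion protein, 191.3 in 20 Gy and 2743.1 in combined libraries. The sum therefore does not follow these macrophages alone, and their part in the Cd209b values was not tested.

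Cd209f and Cd209g were near the limit of detection. Cd209f had normalized counts of 0, 0 and 1.0 in untreated, 0, 2.0 and 0 in fusion protein, 5.3, 9.6 and 5.2 in 20 Gy and 4.5, 0 and 0.9 in combined libraries. Cd209g had 0, 0 and 2.1, then 4.2, 0 and 0, then 8.8, 1.1 and 1.3, and then 2.7, 0 and 3.5 in the same order of groups. In all, Cd209f had 19 reads in the 3 libraries of the 20 Gy group and 1 in the untreated group. The share of receptor genes with a read was 78.96%, 59.01% and 13.11% in the 20 Gy libraries and 12.6%, 5.02% and 21.32% in the untreated ones. Its part in these values was not tested.

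**Figure D1:**
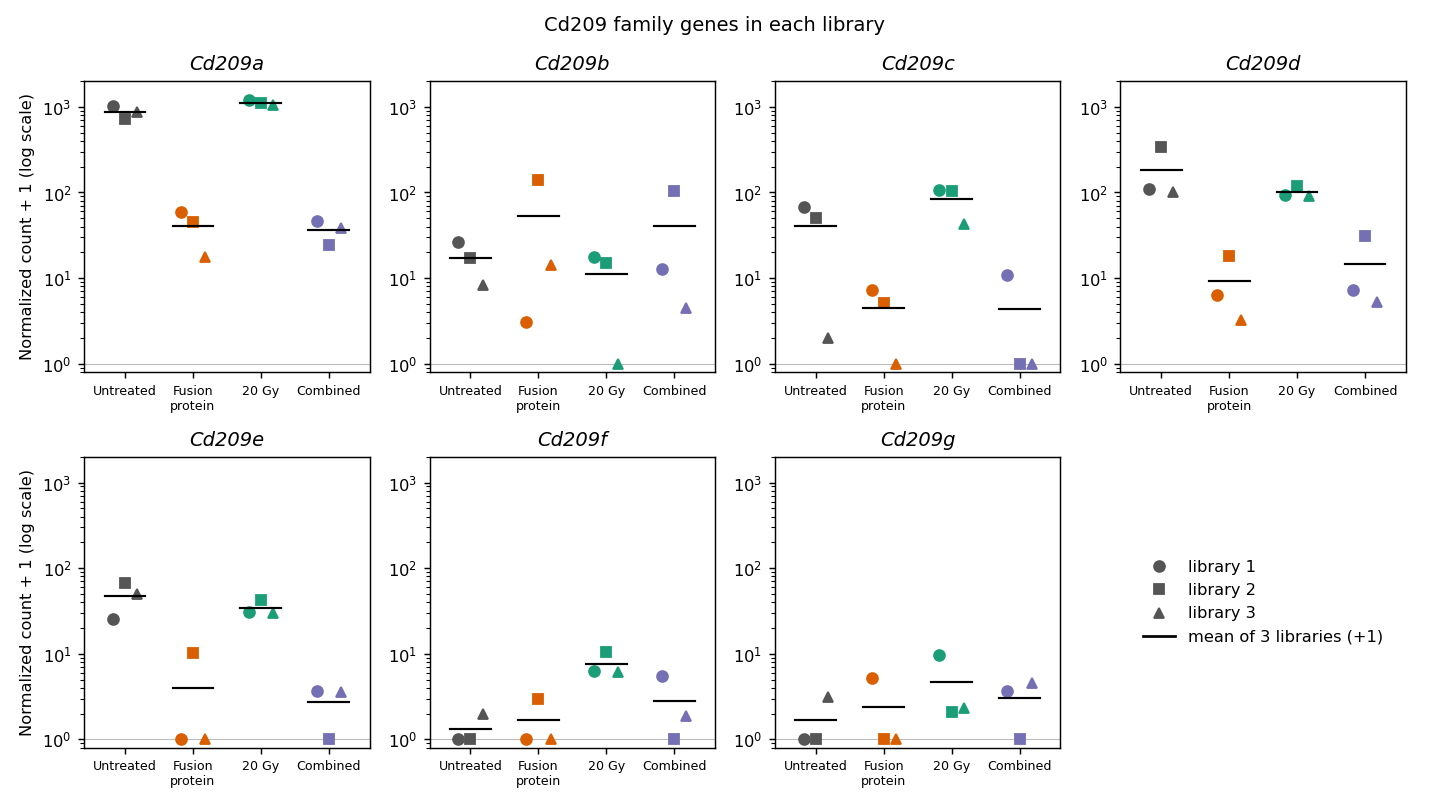
Normalized count plus 1 on a log axis for each of the 7 Cd209 genes, with 1 point per library (circle, square and triangle for libraries 1, 2 and 3) and a bar at the mean of the 3 libraries of a group. Cd209a, Cd209d and Cd209e show 2 separate levels, high in untreated and 20 Gy and low in fusion protein and combined libraries, while the 2 high Cd209b points are library 2 of the fusion protein and of the combined group.

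Per kilobase of exon, the unit in which genes of different length can be set side by side, Cd209a led in the untreated group with a mean normalized count of 549 ± 102 (SD, n = 3), ahead of Cd209d at 198 ± 144. Cd209e (25.8 ± 11.5), Cd209c (19.8 ± 17.2) and Cd209b (7.71 ± 4.31) followed, and Cd209g and Cd209f were at 0.191 and 0.174. The neighbours Cd209e and Cd209c, and Cd209c and Cd209b, did not differ beyond their spread. After 20 Gy the order was Cd209a (704 ± 52.0), Cd209d (108 ± 17.2), Cd209c (41.5 ± 17.8), Cd209e (18.6 ± 4.0), Cd209b (4.83 ± 4.24), Cd209f (3.38 ± 1.27) and Cd209g (1.03 ± 1.22). The ranges of mean ± SD of the last 3 overlapped. With the combined treatment Cd209a (22.3 ± 6.82), Cd209b (18.6 ± 26.1) and Cd209d (14.7 ± 15.5) had overlapping ranges of mean ± SD. So did the same 3 genes with the fusion protein alone, at 25.1 ± 13.4, 24.4 ± 36.2 and 8.96 ± 8.63. In each fusion protein library, however, Cd209a was above Cd209d, at 36.75, 28.16 and 10.41 against 5.754, 18.74 and 2.391.

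The make-up of the family varied more between libraries in the 2 groups with the fusion protein. Family reads summed to normalized counts of 1262.6, 1178.2 and 1023.1 in untreated and 1460.8, 1385.4 and 1206.7 in 20 Gy libraries, and to 76.2, 216.8 and 31.9 with the fusion protein and 82.7, 156.5 and 51.8 with both. Cd209a held 60.38% to 84.23% of family reads in the untreated and 79.35% to 86.23% in the 20 Gy libraries. With the fusion protein its shares were 76.39%, 20.56% and 51.72%, and with both treatments 54.35%, 15.08% and 71.67%. Thus 1 library of each of these 2 groups kept a share inside the untreated range. In library 2 of both groups Cd209b took the larger part, 64.49% (exact 95% interval 57.67 to 70.89) of 214 reads and 65.83% (58.79 to 72.39) of 199 reads. Untreated library 2 differed from its group in another way, with 28.39% (25.53 to 31.38) of its family reads on Cd209d against 8.72% and 9.91% in libraries 1 and 3. These intervals cover counting error only, and the shares are of reads, not corrected for length.

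**Figure D2:**
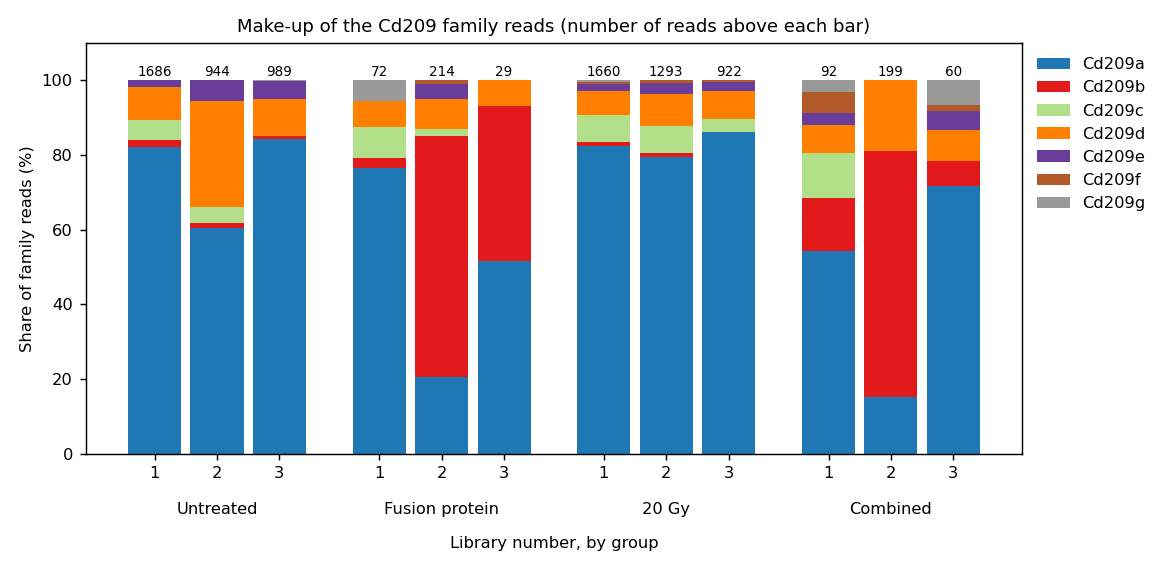
Share of each Cd209 gene in the family reads of a library, in percent, as stacked bars for libraries 1 to 3 of each group, with the number of family reads above each bar. The untreated and 20 Gy bars are mostly Cd209a on 922 to 1686 reads, and the fusion protein and combined bars rest on 29 to 214 reads, with Cd209b the largest part in library 2 of both.

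Radiation alone was not followed by a detectable difference in the 5 tested members. Cd209f and Cd209g, with 19 and 12 reads in the 20 Gy group and 1 and 2 in the untreated group, were too low to be tested. The difference for Cd209a was 0.37 with a 95% interval from −0.52 to 1.27 (limma, adjusted p = 0.868). The intervals were −2.36 to 1.07 for Cd209d, −2.40 to 1.65 for Cd209e, −1.04 to 5.06 for Cd209c and −4.69 to 2.14 for Cd209b, each with an adjusted p of at least 0.782. In this comparison 0% of tested genes passed the threshold in limma, with 1231 genes at an unadjusted p under 0.05, 0 calls by edgeR, 45 by DESeq2 and 70 with the replicate block. It shares the untreated libraries with the comparison that the family was chosen by.

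The combined treatment against untreated tumours also shares the untreated libraries with the comparison that the family was chosen by. Its calls for Cd209a and Cd209d are therefore not independent of that choice. Cd209a fell by 4.62 ± 0.41 (SE), with an adjusted p of 0.000329 (limma), and Cd209d fell by 3.88 ± 0.78 (SE), with an adjusted p of 0.0336. These are 2 of 5 tested members, where 0.192% of all tested genes fell. That share rests on 35 genes, which numbered 455 with the replicate block, 204 with DESeq2 and 10 with only the groups compared. They numbered 11 and 14 without untreated library 2 or 3, and 5, 21 and 4 without combined library 1, 2 or 3. The call for Cd209d was lost with edgeR (adjusted p = 0.0793), without the libraries numbered 3 (0.134), with the receptor gene level in the fit (0.0891) and, at adjusted p of 0.0548 to 0.178, without any 1 of the 3 untreated libraries or combined library 1 or 3. Cd209e differed by −4.22 ± 0.92 (SE) with an adjusted p of 0.0518, which became 0.0171 with the replicate number as a block, and Cd209c by −3.12 ± 1.39 (SE) with an adjusted p of 0.390 (0.0539 with the block). For Cd209b the interval ran from −3.20 to 3.63.

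Radiation added to the fusion protein left the 5 members without a detectable difference. Cd209a differed by −0.04 with a 95% interval from −0.94 to 0.85, and the intervals of the other 4 all included 0, the widest that of Cd209b from −3.44 to 3.39. Here too 0% of tested genes passed in limma, with 534 at an unadjusted p under 0.05. The fusion protein libraries are shared with the comparison that chose the family.

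Whether the fusion protein difference was of another size after radiation is given by the difference between the 2 differences, again with no test because it holds the choosing comparison. It was −0.42 (95% interval −1.68 to 0.85) for Cd209a, 1.21 (−1.21 to 3.64) for Cd209d, 0.50 (−2.36 to 3.37) for Cd209e, −2.60 (−6.92 to 1.71) for Cd209c and 1.25 (−3.58 to 6.08) for Cd209b. All 5 intervals include 0, and that of Cd209a was the narrowest of the 5.

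**Figure D3:**
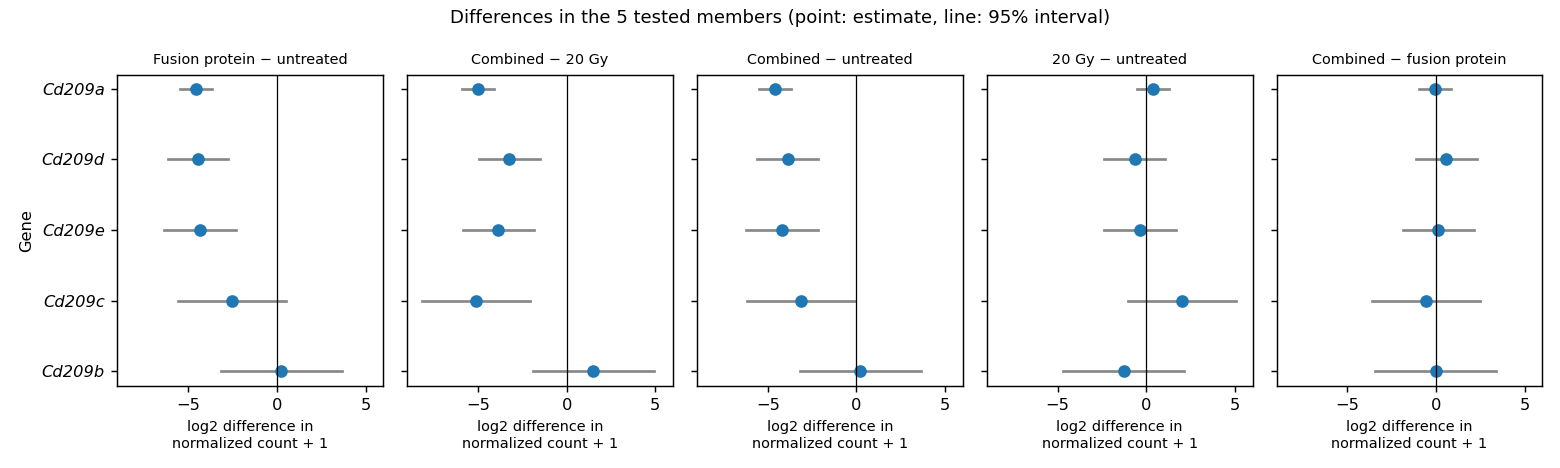
Log2 difference in normalized count plus 1 (point) with its 95% interval (line) for the 5 tested Cd209 genes in 5 comparisons. The intervals of Cd209a, Cd209d and Cd209e lie below 0 in the 3 comparisons of a group with the fusion protein to one without it and include 0 in the other 2.

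Groups whose libraries do not overlap were frequent over all genes. All 3 libraries of the treated group lay below all 3 of the reference group for 3 of the 5 tested members with the fusion protein alone (4.7% of all tested genes), for 4 of 5 when it was added to radiation (9.55%) and for 3 of 5 in combined against untreated tumours (7.52%). The first of these restates the choice of the family, and the last shares its untreated libraries. In the middle one, the 4 members were Cd209a, Cd209c, Cd209d and Cd209e. Cd209c and Cd209e passed the filter only through libraries without the fusion protein, so these counts are a description and support nothing about the family.

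None of the tested protein-coding genes next to the family passed the threshold in the fit without the replicate block. Within 250 kb of the span lie 26 other protein-coding genes, 21 of them tested. With the fusion protein alone 0 of the 21 changed and their median difference was 0.00, against −0.01 over all tested genes, and when it was added to radiation 0 changed and the median was −0.12, against −0.02. The 3 of highest mean were Elavl1, which encodes an RNA-binding protein, Stxbp2, which encodes a protein of granule release, and Xab2, which encodes a splicing and repair factor. Elavl1 had 1739.7, 1817.2 and 2638.5 in 20 Gy and 1934.6, 2068.4 and 2099.1 in combined libraries, Stxbp2 1489.8, 1508.7 and 1425.2 against 1607.4, 1411.7 and 1465.6, and Xab2 961.8, 949.3 and 891.3 against 1006.8, 999.6 and 995.2.

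The nearest neighbour, Clec4g, encodes another C-type lectin, LSECtin, of liver sinusoid and myeloid cells. It had 18.7, 51.2 and 19.7 in untreated, 3.2, 2.0 and 5.5 in fusion protein, 31.7, 36.4 and 13.1 in 20 Gy and 4.5, 1.6 and 5.2 in combined libraries, so that its groups did not overlap. Its difference for combined against 20 Gy was −2.54 ± 0.65 (SE), which did not pass (limma, adjusted p = 0.121). The noncoding gene Gm16553, named after its values were seen, lies on the opposite strand over Clec4g at 3709804 to 3739044. It had 44.0, 25.7 and 19.6 in 20 Gy and 0.9, 0 and 0.9 in combined libraries and ranked 5 from the lowest, with a difference of −4.26 ± 0.88 (SE) that passed in limma (adjusted p = 0.0486) and not in edgeR (0.0737). The sources used here do not say whether counting used the strand, so reads of these 2 genes may not be separated. Fcer2a, which encodes the IgE receptor CD23 of B cells and lies beyond Clec4g, was named after its values were seen too, and its difference was −0.03.

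**Figure D4:**
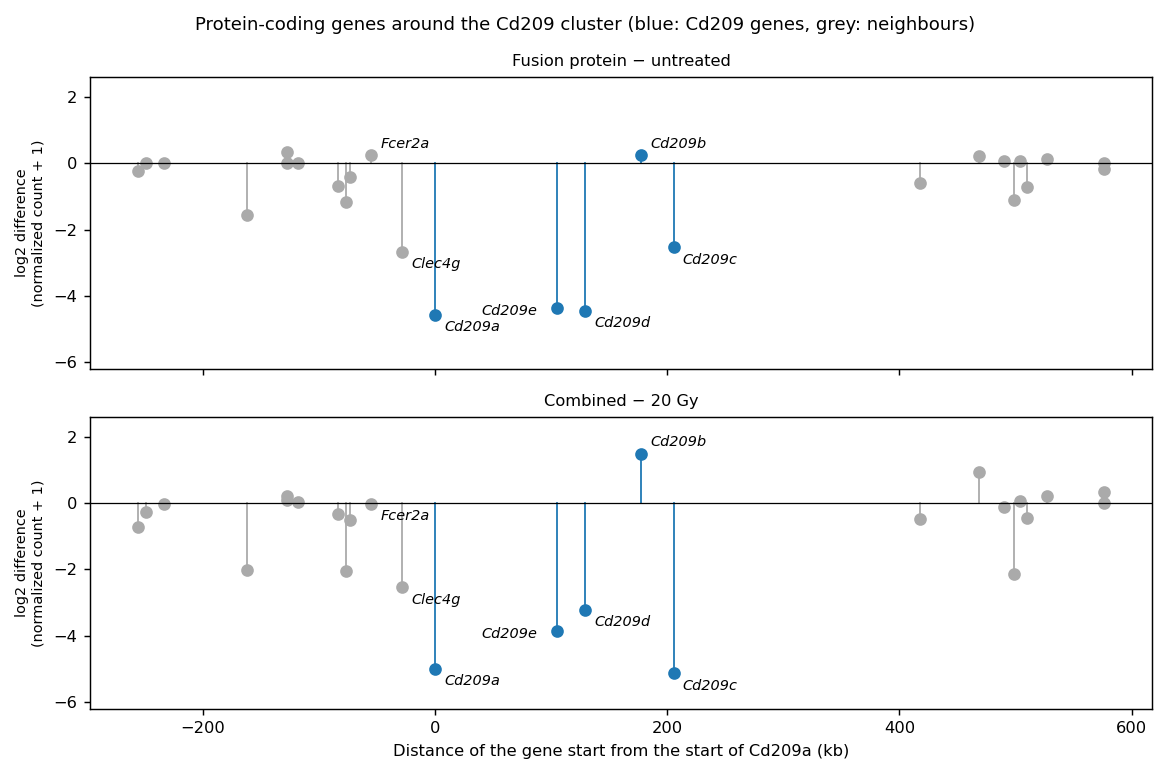
Log2 difference in normalized count plus 1 for the tested protein-coding genes around the Cd209 cluster, plotted against the distance of each gene's start from that of Cd209a in kilobases, with Cd209 genes in blue and neighbours in grey, for fusion protein against untreated (top) and combined against 20 Gy (bottom). Cd209a, Cd209c, Cd209d and Cd209e reach −2.53 or lower in both panels, Cd209b lies above 0, and the lowest neighbour, Clec4g, is at −2.67 and −2.54.

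Among 10415 protein-coding genes of mean normalized count of at least 50, the pattern over the 12 libraries most like that of Cd209a was that of Sort1, which encodes the sorting receptor sortilin, with a Pearson r of 0.979. Then came Anpep (0.975), the aminopeptidase CD13 of myeloid cells, Tle1 (0.974), a corepressor, Fgfr1 (0.964), a growth factor receptor, and Kit (0.959), the stem cell factor receptor, followed by Nfia (0.950), Zdhhc9 (0.950) and Fam234b (0.948). These r values describe 12 libraries that fall in 2 levels of Cd209a, and they were read from the same libraries as the choice of the family. Anpep, for example, had means of 1489 ± 632 (SD, n = 3) in untreated, 342 ± 142 in fusion protein, 1993 ± 137 in 20 Gy and 371 ± 74.8 in combined libraries. Its deviations from the group means correlated with those of Cd209a at 0.866, those of Tle1 at 0.872, and those of Fam234b at 0.301.

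At the other end stood Sh2d1b2 (r of −0.961), a signalling adaptor of NK cells, Rabepk (−0.959), Usp18 (−0.958), which removes ISG15 from proteins, and Ifit3 (−0.955), an interferon-induced antiviral protein. Ifit3 had means of 513 ± 98.9 (SD, n = 3) in untreated, 7331 ± 1493 in fusion protein, 560 ± 363 in 20 Gy and 11126 ± 2515 in combined libraries. Within the family, the r with Cd209a was 0.911 for Cd209e, 0.881 for Cd209d, 0.801 for Cd209c, 0.401 for Cd209f, 0.168 for Cd209g and −0.267 for Cd209b. With group means removed, the r was 0.339 for Cd209e, −0.004 for Cd209d, 0.532 for Cd209c, 0.433 for Cd209f, 0.572 for Cd209g and −0.172 for Cd209b.

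By estimate, all markers of the cells that Cd209a is known from differed by less than Cd209a when the fusion protein was added to radiation. No test compared them with Cd209a. Of 20 genes of conventional type 2 and monocyte-derived dendritic cells, 0 rose and 0 fell, 14 were lower and the median difference was −0.46, against −0.02 over all tested genes. Their summed normalized count was 30380 to 39560 in 20 Gy and 22660 to 31710 in combined libraries. The 2 of smallest p were Mgl2, a lectin of macrophages and type 2 dendritic cells (mean 208 ± 266 to 8.5 ± 7.9, SD, n = 3; difference −4.01 ± 0.98 SE, limma adjusted p = 0.0992), and Flt3, the dendritic cell growth factor receptor (3258 ± 560 to 1138 ± 408; −1.56 ± 0.44, adjusted p = 0.182). Since these are bulk libraries, fewer cells of a type and less RNA per cell cannot be told apart.

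Some markers of other cells passed the test in the same comparison, in which 0.843% of all tested genes rose and 0.186% fell. Of 12 monocyte genes 2 rose and 0 fell, with a median of 0.67: Ms4a4c, a membrane protein of monocytes (2.27 ± 0.34 SE, limma adjusted p = 0.00717), and Ly6c2, the surface marker of inflammatory monocytes (3.53 ± 0.55, adjusted p = 0.00931). Of the monocyte list 9 genes were higher and 3 lower, and the list summed to 17710 to 22560 in 20 Gy and 39320 to 52580 in combined libraries. Of 12 macrophage genes 0 rose and 0 fell, with a median of −0.93 and sums of 14650 to 18110 against 7383 to 9995. Mrc1, the mannose receptor, and C1qa, a complement subunit, had the smallest p, with differences of −3.81 ± 1.08 (adjusted p = 0.177) and −1.18 ± 0.44 (adjusted p = 0.395). Of 12 genes of type 1 conventional dendritic cells 1 fell, Cadm1, an adhesion molecule (−2.36 ± 0.33, adjusted p = 0.00495), and the second by p, the chemokine receptor gene Xcr1, differed by −2.24 ± 0.53 (adjusted p = 0.0846), with sums of 45540 to 48980 against 29860 to 41110. Red cell genes summed to 2477 to 3497 in 20 Gy and to 133.7 to 473.8 in combined libraries, with 0 of 7 past the threshold, Hbb-bt and Hba-a2 having the smallest p (adjusted p of 0.470 and 0.513). Of 7 NK cell genes 1 rose, the granzyme gene Gzma (2.16 ± 0.31, adjusted p = 0.00495), with Prf1, the perforin gene, next by p (1.92 ± 0.47, adjusted p = 0.104) and sums of 10460 to 15280 against 32890 to 37260. The T cell, B and plasma cell, neutrophil, melanoma and endothelial lists had none past the threshold and medians of 0.04, 1.33, 0.15, −0.64 and 0.05. Their genes of smallest p were Lck and Thy1 (0.83 and 0.79), Mzb1 and Igkc (0.74 and 1.39), Cxcr2 and Ly6g (0.85 and 0.51), Mitf and Tyr (−0.28 and −0.85), and Kdr and Clec4g (2.32 and −2.54), in the same order of lists. None of the tested genes of these lists was at 0 throughout a group. The part of these cell types in the Cd209 values was not tested.

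Of 9 tested genes of marginal zone and tissue-resident macrophages 1 rose and 0 fell. This was Siglec1, a sialic acid lectin that interferon induces (3.81 ± 0.53 SE, limma adjusted p = 0.00467), while Cd163, the haemoglobin scavenger receptor, differed by −2.39 ± 1.01 (adjusted p = 0.495). The 10 plasmacytoid dendritic cell genes had a median of 0.03 and none past the threshold, the 2 of smallest p being Cd300c (0.39 ± 0.43, adjusted p = 0.920) and Siglech (−0.40 ± 0.50, adjusted p = 0.940).

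None of the genes through which DC-SIGN is known to act passed the test when the fusion protein was added to radiation. Of 19 signalling partners 0 rose and 0 fell, and the median was −0.03. In combined against untreated tumours 1 of them rose, where 221 of 18274 tested genes did. Ikbke, a kinase of interferon induction, was the second by p (1.06 ± 0.37 SE, limma adjusted p = 0.339). Of 7 counter-receptors 0 changed, with a median of 0.05, and Icam2, a ligand of DC-SIGN on endothelium and leukocytes, differed by 0.74 ± 0.27 (adjusted p = 0.364) and Ceacam1 by −0.22 ± 0.66 (adjusted p = 0.987).

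Of 21 tested genes listed for GM-CSF and IL-4, which include their receptors and STAT factors beside response genes, 16 were lower, 0 passed and the median was −0.43. The 2 of smallest p were Ccl24, an eosinophil chemokine, at −5.14 ± 1.23 (SE, limma adjusted p = 0.0919), with means of 55.4 ± 42.6 and 0.3 ± 0.5 (SD, n = 3), and Mgl2, which also stands in the type 2 dendritic cell list. Ccl24, Cd209c and Cd209a were the 3 genes of lowest difference in this comparison. The type I interferon list moved the other way: 22 of 24 genes rose, 0 fell, and the median was 3.09, with Ifit3 (4.46 ± 0.37, adjusted p = 0.000355) and Oas3, an RNA sensor (3.18 ± 0.28, adjusted p = 0.000460), of smallest p. With the fusion protein alone 21 of 24 rose and the median was 3.26.

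**Figure D5:**
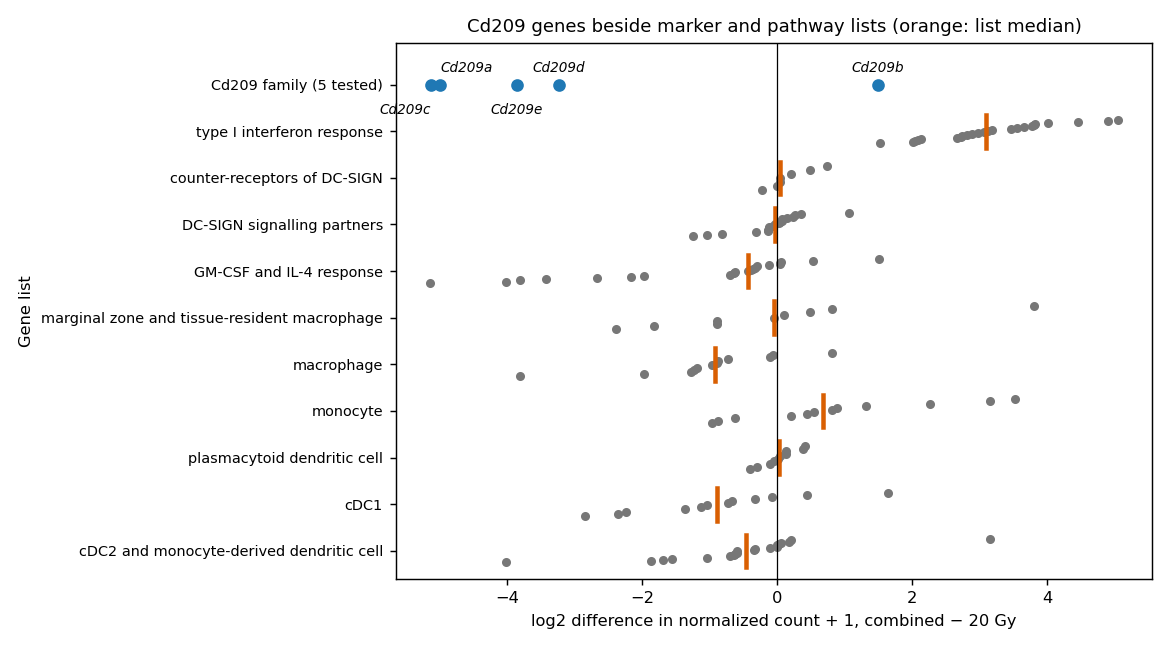
Log2 difference in normalized count plus 1 for combined against 20 Gy, with 1 grey point per tested gene of 10 marker and pathway lists, an orange bar at each list's median, and the 5 tested Cd209 genes in blue. Cd209a and Cd209c sit near −5, at the level of the lowest list gene, Ccl24, and below the other list genes shown, while the interferon genes all lie above 0.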

How the data were processed

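RNA from 12 samples of sorted tumour CD45+ CD11c+ cells was sequenced as paired 100-base reads from total RNA libraries of a stranded low-input kit, per the labels' protocols. Reads were processed with FastQC, Trimmomatic, STAR, featureCounts and DESeq2 on mm10, per the submitters' processing notes. Their versions, the strand setting and the handling of reads that map to several places: not given in the sources used here. The deposited signal values are read counts that the authors divided by a size factor per library, for 55401 gene identifiers. Multiplying by the recovered factors gave whole reads, within 0.001, for 100% of values, and symbols from GENCODE vM21 (GRCm38) matched 99.53% of identifiers. Depth in each library sets the precision of low members, whose read numbers are given with Poisson intervals.

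The members and gene lists were chosen with earlier results of these data known. Testing was limited to the 18274 genes that reached a normalized count of 10 in 3 or more libraries. Log2 of the normalized count plus 1 was fitted with limma 3.58.1 in R 4.3.3, using the 4 groups of 3 and a variance trend (8 residual and 3.313 prior degrees of freedom), two-sided, with Benjamini-Hochberg adjustment over all tested genes and a threshold of 0.05. "Rose" and "fell" are used of genes past it. edgeR 4.0.16 and DESeq2 1.42.0 were run on the recovered reads as alternatives, beside other pseudocounts (0.5 and 5), no filter, TMM scaling, no variance trend, only the groups compared, a replicate block, each library left out and, chosen after the data were seen, the libraries numbered 3 left out and the mean receptor gene level as a covariate. The fit was tested on simulated counts. Named were all 7 members, the 3 neighbours of highest mean, the 8 genes most and 4 least like Cd209a, and of each list described the 2 genes of smallest p for combined against 20 Gy. Other names are marked as chosen after their values were seen. Of the signalling partners, 1 gene that this rule names is not reported here.

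Residuals of samples with the same replicate number in the labels, which do not say what it stands for, had r of 0.473 to 0.621 in fusion protein against untreated, of 0.156 to 0.496 in 20 Gy against untreated, of 0.334 to 0.389 in combined against untreated and of 0.410 to 0.484 in combined against fusion protein. Member values with the block are given there where they change a call, and neighbours and list genes were taken from the fit without it. No 2 libraries of a group agreed within sampling noise.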

Additional observations from a re-analysis of the deposited data

How the results depend on the processing

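The fall of Cd209a held in all 17 alternatives for combined against 20 Gy, from −5.18 to −4.73 on leaving out 1 library, with adjusted p-values between 8.78e-35 (DESeq2) and 0.00424 (limma without combined library 3). With TMM scaling it was −4.84, where the median of all tested genes stood at 0.135. In the same comparison Cd209e passed with a pseudocount of 5 (−2.52) and Cd209c, Cd209d and Cd209e with DESeq2 (−4.67, −2.88 and −4.27). Without 1 library Cd209d ranged from −4.01 to −2.74 and passed without combined library 2 (adjusted p = 0.0433). Same-numbered samples of these 2 groups correlated at 0.505, 0.01 and 0.382, so the numbers were not taken as pairs, and number 2 correlated best with number 1. With the replicate block Cd209c (−5.13), Cd209d (−3.23) and Cd209e (−3.85) passed, and 834 genes in place of 188. Cd209c and Cd209e reached the filter only through libraries without the fusion protein, so their passing here and below is a description.

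For combined against untreated, Cd209d was −3.74 with edgeR, −3.88 without the variance trend and with only the groups compared, −3.69 without the libraries numbered 3, −3.56 with the receptor gene level and −4.65 to −3.33 without 1 library; the call was lost in each except without combined library 2. Cd209e passed with a pseudocount of 5 (−2.87), DESeq2 (−4.74) and the block (−4.22). Cd209b, never called, was −0.09 with the receptor gene level and −1.05 to 1.22 without 1 library. For 20 Gy against untreated, Cd209d was 0.05 with the receptor gene level and Cd209b −2.01 to 0.07 without 1 library.

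Genes past the threshold numbered 136 with the fusion protein, against 464 (DESeq2), 86 (no variance trend), 18 (only the groups compared), 602 (block) and 46 to 178 without 1 library. For combined against 20 Gy they numbered 550 with DESeq2 and 76 to 201 without 1 library, for combined against untreated 256, against 755 (DESeq2), 149 (only the groups compared), 1413 (block) and 93 to 278 without 1 library, and for 20 Gy against untreated 45 (DESeq2), 3 (no variance trend) and 70 (block) in place of 0. Radiation added to the fusion protein gave signs that changed for uncalled members: Cd209b 0 (pseudocount 0.5), 0.79 (without the libraries numbered 3) and −1.31 to 1.44 (1 library left out), Cd209e −0.09 (pseudocount 5), −0.81 (edgeR), −0.83 (DESeq2), −0.73 (without the libraries numbered 3) and −0.43 to 1.24, Cd209a −0.57 to 0.31, and Cd209d −0.20 to 1.24. The causes were not tested. With windows of 50 bases Cd209c shared 15.7% with other genes, and Cd209f and Cd209g shared 29.8% and 16.6% with each other. Cd209f and Cd209g had 0 to 10 reads per library, too few to test.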
